A study of Mus musculus with 4 samples.

Results

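The genes described here encode the oxidative phosphorylation system: 97 of the 31053 gene rows of the deposited matrix. They were chosen by symbol alone, as rows that match ^Nduf[abcsv][0-9], ^Sdh[abcd]$, ^Uqcr, ^Cox[4-8], ^Atp5 or ^mt-. Of these, 84 rows with 83 symbols are nuclear genes and 13 are the protein genes of mitochondrial DNA, written with the prefix mt-. No measured value went into the choice.

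Oxidative phosphorylation takes place in the inner mitochondrial membrane. Complexes I (NADH dehydrogenase), III (the cytochrome bc1 complex) and IV (cytochrome c oxidase) pass electrons to oxygen and pump protons. Complex II (succinate dehydrogenase) feeds in electrons without pumping, and complex V (ATP synthase) makes ATP from the proton gradient. Complex II is encoded wholly by nuclear DNA, while the others mix nuclear subunits with core subunits read from mitochondrial DNA. Each strand of mitochondrial DNA is transcribed as a long RNA, which is then processed into single messages. Resting lymphocytes are known to rely on this pathway, whereas mature neutrophils are known for relying largely on glycolysis.

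The study measured hepatic immune cells of mice with a liver metastasis model in which surgery promotes tumour spread. All animals were male, 8 weeks old by their label, and bore MC38 tumours, a mouse colon carcinoma line. The livers were taken 3 weeks after the tumour cells were injected. Cells bearing CD45, a surface protein of blood-derived cells, were pulled from the non-parenchymal fraction with magnetic beads and profiled with the 10x 3' v3.1 chemistry. There were 2 groups of 2 libraries: sedentary mice (Sed 1, Sed 2) and mice exercised before the operation (Ex 1, Ex 2). What all groups share is the tumour, the operation model and the bead enrichment. Nothing in the labels says that the libraries came from separate animals, so the Ex against Sed p-values measure only the spread between these 4 samples. Tests among cell classes use several class sums from each library. Their p-values measure the spread of these sums, which are not separate samples.

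After filters, 6839, 7141, 5763 and 4097 cells remained in Sed 1, Sed 2, Ex 1 and Ex 2, and 4 values in a row always follow this order below. These cells held 20820234 to 35655530 unique molecular identifiers (UMIs, 1 per captured RNA molecule) per library, with medians of 3284, 3286, 3749 and 3701 per cell. Cells with over 10% mt- UMIs were left out, which removed 5.88% and 5.54% of the Sed cells and 12.7% and 12.6% of the Ex cells. Clusters were made without the 97 genes, named from marker genes and called "-like", and 11 classes had at least 30 cells in every library. Different clusters held the Sed and the Ex cells of some classes. Neutrophil-like cluster 1 had 1597, 728, 44 and 24 cells against 253, 397, 446 and 293 in cluster 6. Monocyte-like cluster 2 had 1060, 999, 80 and 43 cells against 208, 353, 654 and 310 in cluster 3. Kupffer-like cluster 14, the deeper of its clusters, had 80, 433, 18 and 22 cells against 233, 603, 414 and 81 in cluster 7. B-like cluster 4 had 806, 316, 187 and 112 cells against 534, 475, 828 and 1078 in cluster 0, and other macrophage-like cluster 8 had 179, 147, 643 and 283 against 67, 204, 139 and 28 in cluster 17. Among CD8 T-like cells, cluster 10 had 269, 521, 28 and 22 cells and cluster 5 had 307, 126, 645 and 333. The top genes of cluster 10 included Cd8a, Cd8b1, Gzma, Gzmb and Gzmk. Those of cluster 5 included Tcf7, Lef1 and Il7r but neither Cd8a nor Cd8b1, so the CD8 name is less certain for it. The Sed and Ex cells of this class therefore differed in T cell make-up. Other T-like cells were cluster 16, which scored 2.20 on markers of type 1 innate lymphoid cells and 1.96 on T cell markers. The name of that class is uncertain as well. Endothelial-like cells, which lie outside a CD45 gate, were also present, with clusters 15 and 21 found almost wholly in Ex and in Sed libraries respectively. With 2 libraries against 2, an exact permutation test cannot go below a two-sided p of 0.333. In pooled RNA of a class, fewer cells in a state and less RNA per cell cannot be told apart.

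Levels are given as CPM, UMIs summed over the kept cells of a library and scaled to the same fixed total in each, and averaged over the 4 libraries. They count captured 3' ends and are not divided by gene length. Complex I had 37 nuclear rows, 36 of them at 10 CPM or more, with a summed level of 5204 CPM. Its most captured members were Ndufa13 (327 CPM), Ndufa4 (322 CPM, named for complex I and now placed in complex IV) and Ndufa2 (253 CPM). The 4 subunits of complex II summed to 313 CPM: Sdhb, the iron-sulfur subunit, had 107 CPM, the anchor Sdhd 75.6, the flavoprotein Sdha 74.1 and the anchor Sdhc 56.1. Complex III had 8 rows and 1780 CPM, led by its hinge subunit Uqcrh (612 CPM), with Uqcrq (270 CPM) and Uqcrb (218 CPM) next. Complex IV had 18 rows, of which 12 reached 10 CPM, and 5057 CPM in all, led by Cox4i1 (998 CPM), Cox8a (762 CPM) and Cox6c (460 CPM). Complex V had 17 rows, of which 15 reached 10 CPM, and 5205 CPM, led by Atp5h (613 CPM), Atp5e (591 CPM) and Atp5l (529 CPM). In all, 75 of the 84 nuclear rows reached 10 CPM, and Cox8b, Cox8c and a second row named Atp5o had no UMI in any kept cell. The 13 mt- genes summed to 34210 CPM against 17559 CPM for the nuclear rows.

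The 13 mt- genes lie head to tail on the mitochondrial chromosome (GRCm38, GENCODE vM21), which bears on how their 3' counts can be read. Going round the plus strand, mt-Nd1 spans positions 2751 to 3707, mt-Nd2 3914 to 4951, mt-Co1 5328 to 6872 and mt-Co2 7013 to 7696. Next come mt-Atp8 at 7766 to 7969, mt-Atp6 at 7927 to 8607, mt-Co3 at 8607 to 9390 and mt-Nd3 at 9459 to 9806. The rest are mt-Nd4l at 9877 to 10173, mt-Nd4 at 10167 to 11544, mt-Nd5 at 11742 to 13565, mt-Nd6 at 13552 to 14070 on the minus strand, and mt-Cytb at 14145 to 15288. The genes mt-Atp8 and mt-Atp6 share 43 bases and mt-Nd4l and mt-Nd4 share 7, so each pair is carried on a common message. The shared bases of the first pair are shown because counts of mt-Atp8 (75.1 CPM) and mt-Atp6 (7262 CPM) come from a message with a common 3' end; the capitals mark the start codon of mt-Atp6.
mt-Atp8 and mt-Atp6 overlap: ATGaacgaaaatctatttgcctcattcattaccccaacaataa

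Promoter windows of RefSeq (GRCm38.p6, 250 bases before to 50 bases after the gene start) were found for 68 of the 83 nuclear symbols. The start is RefSeq's: for Cox7a2l and Atp5f1 it lies inside the GENCODE span given further on, so their windows are not upstream of the outermost GENCODE start. Both strands were searched for a form of the NRF1 motif (GCGC, then A and any base N, then GCGC), for CCGGAAG, a core bound by ETS factors such as GABP, and for the E-box CANCTG. The NRF1 letters were in 16 of the 68 windows (23.5%), against 4.78% of all 27025 windows. The ETS letters were in 15 (22.1% against 9.12%) and the CANCTG letters in 27 (39.7% against 51.1%). Windows are shown for the 4 nuclear genes that passed the test between Ex and Sed in endothelial-like cells, with capitals on any of the 3 motifs. Cox6a1 (chr5:115348909-115349208, minus strand) held the NRF1 letters in 2 places and the ETS letters in 1. Ndufc1 (chr3:51408906-51409205, minus strand) held the CANCTG letters in 1 place. None of the 3 searched motifs was in the windows of Atp5f1, which RefSeq names Atp5pb (chr3:105959214-105959513, minus strand), or Cox7a2l (chr17:83514284-83514583, minus strand). This says only that these letters are absent there. E-box forms outside the search were present: CACGTG in the Atp5f1 window and CAAGTG in that of Cox7a2l.
Cox6a1: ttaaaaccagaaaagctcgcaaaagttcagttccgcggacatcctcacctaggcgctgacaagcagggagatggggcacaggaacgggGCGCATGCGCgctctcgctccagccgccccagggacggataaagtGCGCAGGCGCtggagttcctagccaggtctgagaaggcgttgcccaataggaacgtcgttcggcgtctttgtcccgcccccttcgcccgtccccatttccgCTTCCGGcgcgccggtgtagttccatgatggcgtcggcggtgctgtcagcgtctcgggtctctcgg
Ndufc1: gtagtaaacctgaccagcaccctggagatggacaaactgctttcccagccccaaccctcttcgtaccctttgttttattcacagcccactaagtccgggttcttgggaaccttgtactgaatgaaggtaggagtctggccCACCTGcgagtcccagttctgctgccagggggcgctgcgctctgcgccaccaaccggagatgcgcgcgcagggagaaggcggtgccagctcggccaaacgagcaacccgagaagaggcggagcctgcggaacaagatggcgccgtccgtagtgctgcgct
Atp5f1: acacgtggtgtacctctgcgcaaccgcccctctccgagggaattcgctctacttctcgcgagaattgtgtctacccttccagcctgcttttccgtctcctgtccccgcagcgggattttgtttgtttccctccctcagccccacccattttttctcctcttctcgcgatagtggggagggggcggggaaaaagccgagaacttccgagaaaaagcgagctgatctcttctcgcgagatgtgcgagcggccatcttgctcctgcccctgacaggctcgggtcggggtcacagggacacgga
Cox7a2l: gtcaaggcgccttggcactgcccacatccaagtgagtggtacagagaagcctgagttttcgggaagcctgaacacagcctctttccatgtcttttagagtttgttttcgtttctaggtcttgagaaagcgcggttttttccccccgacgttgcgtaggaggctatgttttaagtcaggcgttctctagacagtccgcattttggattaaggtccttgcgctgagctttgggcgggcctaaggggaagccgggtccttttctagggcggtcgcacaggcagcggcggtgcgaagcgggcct

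The first comparison was among cell classes. B-like cells gave the largest share of their UMIs to mt- genes, 4.81% ± 0.639 (SD over 4 libraries), and neutrophil-like cells the smallest, 1.42% ± 0.497. Between them came endothelial-like (4.37%), other T-like (4.37%), Kupffer-like (4.31%), CD8 T-like (3.98%), regulatory T-like (3.82%), NK-like (3.68%), monocyte-like (3.17%), other macrophage-like (3.03%) and conventional dendritic-like cells (2.96%). The step from B-like to endothelial-like cells, from regulatory T-like to NK-like, from NK-like to monocyte-like and from conventional dendritic-like to neutrophil-like cells had the same sign in 4 of 4 libraries. An exact sign-flip test gave p = 0.125 for each of these, the smallest that 4 libraries allow. The other neighbours in the order differed in sign between libraries. Plasmacytoid dendritic-like cells, with too few cells in Sed 1 to be ranked, had mt- shares of 4.94%, 5.13%, 5.31% and 4.82%.

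Nuclear genes gave another order among these classes. Monocyte-like cells led with 2.14% ± 0.212 of their UMIs (SD, n = 4), followed by Kupffer-like (1.91%), conventional dendritic-like (1.90%), NK-like (1.88%), other macrophage-like (1.83%) and regulatory T-like cells (1.83%). CD8 T-like (1.69%), other T-like (1.60%), endothelial-like (1.51%), B-like (1.22%) and neutrophil-like cells (0.808% ± 0.0853) followed. The last 2 steps, from endothelial-like to B-like and from B-like to neutrophil-like cells, had the same sign in 4 of 4 libraries (exact sign-flip p = 0.125 each). Among the ranked classes, the ratio of mt- to nuclear UMIs ran from 3.99 ± 0.808 in B-like cells to 1.502 ± 0.294 in monocyte-like cells. Cycling T-like cells had too few cells in Ex 2 to be ranked. Their nuclear shares were 2.34%, 2.25%, 2.37% and 2.34%, and their ratios 1.15, 1.23, 1.51 and 1.58.

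**Figure D1:**
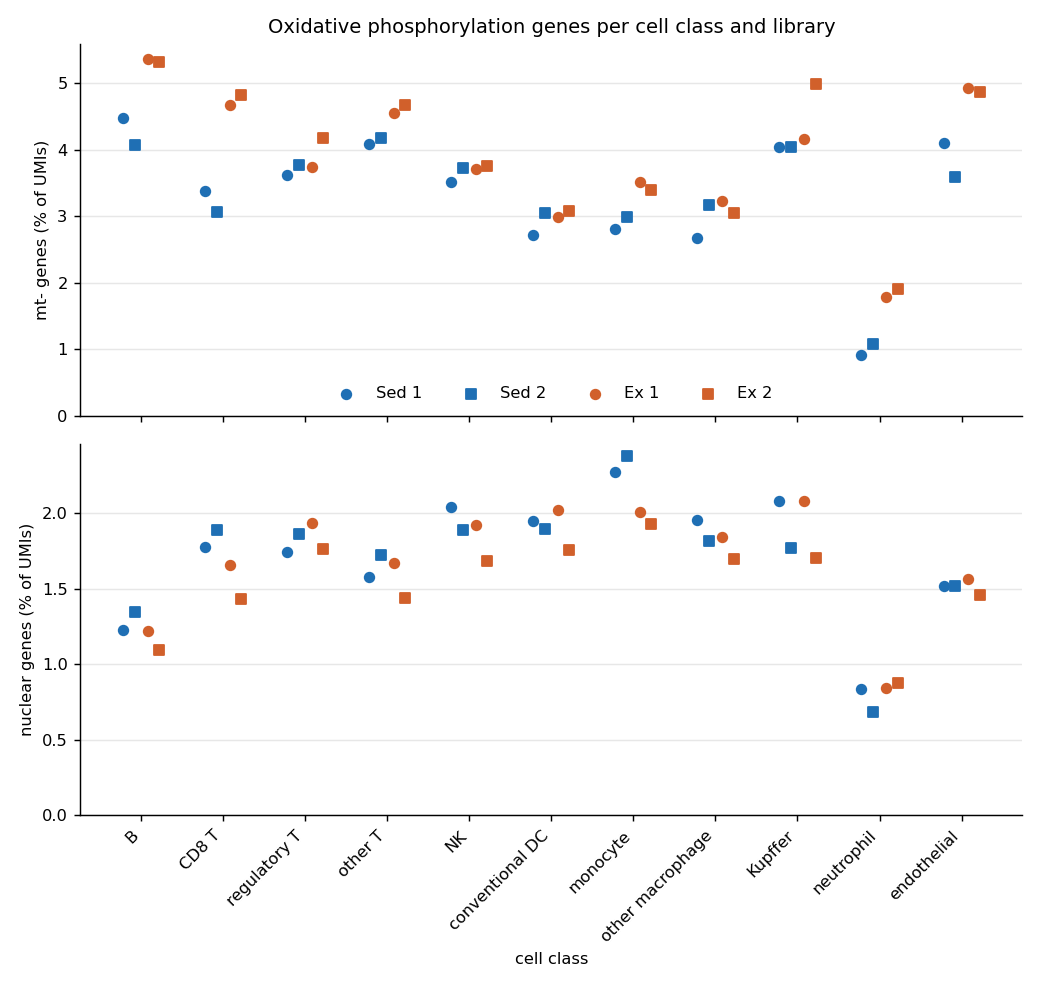
Percent of all UMIs in the 13 mt- genes (top) and in the nuclear genes (bottom) for each cell class, with 1 point per library (circles and squares for replicates 1 and 2). In B-like cells the Ex libraries were at 5.37% and 5.32% mt- UMIs against 4.48% and 4.07% in Sed, and neutrophil-like cells had the lowest levels of both gene sets.

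Each class was then tested against the mean of the other 10 with edgeR, gene by gene over 11551 genes, with the library as a block and Benjamini-Hochberg adjustment over all genes. Log2 values from this test use TMM scaling, so they can differ from the ratio of the CPM values. With 77 nuclear and 13 mt- genes tested in each class, 479 pairs of member and class passed. That share was close to that of all pairs of gene and class, of which 25.9% were higher and 19.7% lower. Of 77 nuclear genes tested, 64 were higher and 1 lower in monocyte-like cells, with a median log2 difference of 0.53, against a median of -0.00 over all genes and 30% of all genes called higher and 21.4% lower. By complex, 32 of 36 genes of complex I, 3 of 4 of complex II, 5 of 8 of complex III, 10 of 13 of complex IV and 14 of 16 of complex V were higher. The largest rises among genes at 20 CPM or more were Ndufs8, an iron-sulfur subunit (143 against 83.5 CPM, log2 0.88 ± 0.11 SE), and Ndufb10, an accessory subunit of the membrane arm (284 against 164 CPM, 0.86 ± 0.11). Their edgeR adjusted p-values were 3.23e-09 and 4.81e-09. The mt- genes did not follow: 5 of 13 were lower and none higher, with mt-Nd2 at 975 against 1649 CPM (log2 -0.66 ± 0.14, adjusted p 8.45e-05) and mt-Nd6 at 23.0 against 40.3 CPM (-0.65 ± 0.14, 0.000169).

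Kupffer-like cells were higher for both sets, with 36 of 77 nuclear genes higher and 3 lower (29.9% and 19.4% of all genes) and 9 of 13 mt- genes higher. Complex II had the largest median there, 0.74, with 3 of its 4 genes higher. Cox5a, a nuclear-encoded structural subunit of complex IV, had 884, 1038, 1107 and 935 CPM in Kupffer-like cells against a mean of 313 CPM in the other classes. All 4 Kupffer-like values were above the highest library value of any other tested class, 649 CPM in other macrophage-like cells. The log2 difference was 1.70 ± 0.094 (SE; edgeR adjusted p 3.00e-19). Ndufc1, a small subunit of the membrane arm of complex I, had 187 ± 37.7 CPM (SD, n = 4) against 92.2 CPM, a log2 difference of 1.11 ± 0.13 (adjusted p 2.65e-09). Ndufb11 (132 against 218 CPM, log2 -0.72) and Uqcrh (505 against 663 CPM, -0.37) were lower. Kupffer-like clusters 7 and 14 differed in depth, and cluster 7 held few UMIs per cell.

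Conventional dendritic-like and other macrophage-like cells also had more nuclear genes higher than lower and no mt- gene higher. In conventional dendritic-like cells 34 nuclear genes were higher and 0 lower (24.2% and 13.5% of all genes), led by Ndufc2 (198 against 130 CPM, log2 0.74) and Atp5c1, the central stalk of ATP synthase (368 against 245 CPM, 0.64). In the same cells 10 of 13 mt- genes were lower. Other macrophage-like cells had 40 nuclear genes higher and 4 lower (29.7% and 15.5%), and 9 mt- genes lower. Ndufc1 (147 against 96.2 CPM, log2 0.80) and Ndufc2 (186 against 131 CPM, 0.69) led that class.

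B-like cells showed the reverse pattern. All 13 mt- genes were higher, with a median log2 difference of 0.64, and 47 of 77 nuclear genes were lower while 4 were higher (24.6% of all genes lower, 27.8% higher). The mt- gene with the largest difference was mt-Nd5, a proton-pumping subunit, at 597 ± 98.7 CPM (SD, n = 4) against 336 CPM (log2 1.02 ± 0.10, edgeR adjusted p 4.41e-11), followed by mt-Cytb, the core of complex III, at 3545 against 2302 CPM (0.83). Ndufa8 (58.7 against 117 CPM, log2 -0.85) and Cox5a (183 against 394 CPM, -0.83) were the lowest.

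Calls in 5 classes depended on the scaling. In neutrophil-like cells TMM gave 12 nuclear genes higher and 42 lower (35.2% and 34.4% of all genes), whereas scaling by library totals gave 0 higher and 73 lower and moved the median of all genes from -0.13 to -1.07. All 13 mt- genes were lower there under either scaling. Ndufa5 (13.2 against 85.5 CPM) and Atp5g1 (41.5 against 260 CPM), which codes for the ring subunit c of ATP synthase, were the lowest, at log2 -1.71 ± 0.16 and -1.69 ± 0.15. Endothelial-like cells had 9 nuclear genes higher and 34 lower (36.6% and 25.4%) with TMM, and 18 and 20 with library totals. Their mt- genes were higher, 8 of 13 with TMM and 11 with library totals, and Atp5e (333 against 606 CPM, log2 -1.06) and Ndufa13 (195 against 343 CPM, -1.01) were the lowest nuclear genes.

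The counts of NK-like, regulatory T-like and other T-like cells moved with the scaling. NK-like cells had 8 nuclear genes higher and 1 lower (18.5% and 15.8% of all genes), or 30 and 0 with library totals. Regulatory T-like cells had 1 higher and 13 lower (13.9% and 12.8%), or 18 and 0, and other T-like cells 1 and 30 (14.5% and 13.3%), or 4 and 8. In CD8 T-like cells 8 nuclear genes were higher and 7 lower (24.9% and 20.5%), and 6 mt- genes were higher. Uqcrh (log2 0.47) and Cox7a2l, a factor that joins complexes III and IV (0.45), were the highest in CD8 T-like cells.

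**Figure D2:**
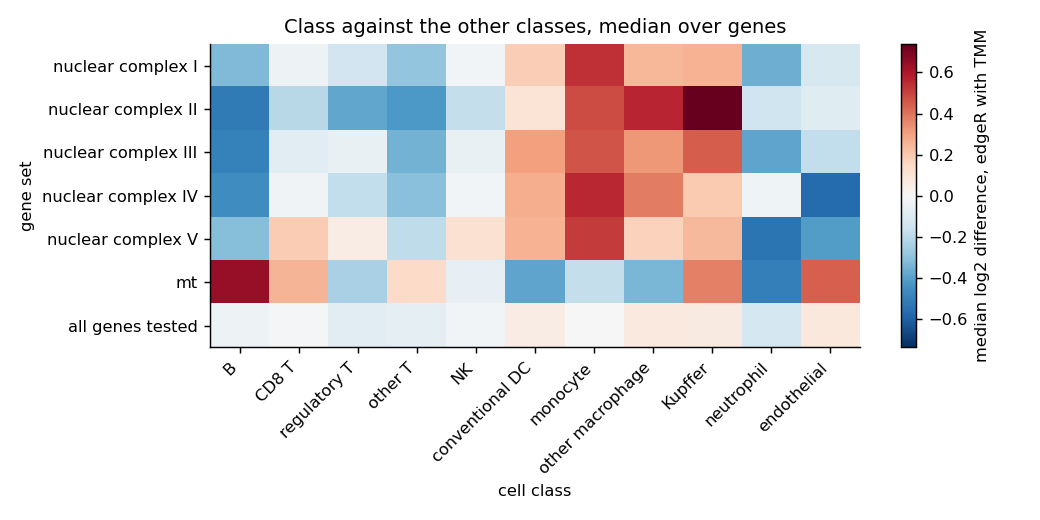
Median log2 difference of each cell class from the other classes (edgeR, TMM scaling), by nuclear complex, for the mt- genes and for all 11551 genes tested. Monocyte-like, Kupffer-like, conventional dendritic-like and other macrophage-like cells were positive in all 5 nuclear complexes. B-like, endothelial-like, neutrophil-like and other T-like cells were positive in none of them, while B-like cells had the highest mt- median (0.64). With library totals the nuclear median of neutrophil-like cells fell to -1.25 and that of regulatory T-like cells changed sign to 0.19.

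Cox6a2, the heart and skeletal muscle form of a complex IV subunit, was found almost wholly in plasmacytoid dendritic-like cells. Its level there was 814, 1221, 1396 and 998 CPM, and UMIs of it were seen in 176 of 198 cells (88.9%, median depth 5763 UMIs). Conventional dendritic-like cells, at a median of 8078 UMIs, had it in 2.23% of cells, NK-like cells in 0.895%, and B-like cells in none of 4336. The gene is a known marker of plasmacytoid dendritic cells, and it was used neither to cluster nor to name them. This class had 17, 40, 90 and 51 cells and was not tested. The other tissue-restricted forms were scarce in all kept cells: Cox4i2 had 1.12 CPM, Cox7a1 1.55, Cox6b2 5.68 and Ndufa4l2 0.866, against 998 CPM for Cox4i1, 305 for Cox7a2, 435 for Cox6b1 and 322 for Ndufa4.

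The second comparison asked how exercised mice differed from sedentary mice. The share of mt- UMIs over all kept cells was 2.72%, 3.14%, 3.74% and 4.08%. Both Ex libraries were above both Sed libraries, with a difference of 0.975 percentage points, and the exact permutation test gave p = 0.333. The same order held within 7 of the 11 classes. In CD8 T-like cells the shares were 3.37%, 3.07%, 4.66% and 4.82%, and in neutrophil-like cells 0.911%, 1.08%, 1.79% and 1.90%. Kupffer-like cells had 4.03%, 4.05%, 4.16% and 4.99%, so Ex 1 lay close to the Sed values. In NK-like, conventional dendritic-like, other macrophage-like and regulatory T-like cells the groups overlapped. By cluster, both Ex libraries were higher in 10 of 14 with 30 or more cells in each library. In other macrophage-like cells, whose groups overlapped as a class, cluster 8 had 2.45%, 2.60%, 3.07% and 2.98% and cluster 17 had 3.13%, 3.59%, 3.84% and 3.83%, both higher in Ex. In B-like cells cluster 0 was higher in Ex (4.52%, 4.76%, 5.58% and 5.48%), while the groups overlapped in cluster 4 (4.45%, 3.28%, 4.60% and 4.09%). More Ex cells lay above the limit of 10% mt- UMIs. The difference over all cells was 1.28 points without that limit and 0.525 points with a limit of 5% and at least 500 genes. The part of cell quality in this difference was not tested.

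The share of nuclear genes over all kept cells was 1.77%, 1.93%, 1.79% and 1.54%. The groups overlapped (exact permutation p = 0.667). Within classes, both Ex libraries were lower in B-like, CD8 T-like and monocyte-like cells and higher in neutrophil-like cells, and the groups overlapped in the other 7. As a share of UMIs without mt- genes, the B-like groups overlapped too (1.284%, 1.400%, 1.285% and 1.157%). Of 14 clusters with 30 or more cells in each library, 5 were lower in Ex, 0 higher and 9 overlapped. B-like cluster 0 and monocyte-like cluster 2 were lower. The groups overlapped in CD8 T-like cluster 5, monocyte-like cluster 3 and neutrophil-like clusters 6 and 12. The ratio of mt- to nuclear UMIs was 1.54, 1.63, 2.09 and 2.66, higher in both Ex libraries, and it was so in 7 of 11 classes.

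The make-up of the mt- RNA differed as well. The 7 mt-Nd genes of complex I made up 11.9%, 13.2%, 16.3% and 17.7% of mt- UMIs over all kept cells, a difference of 4.43 points (exact permutation p = 0.333). Both Ex libraries were higher in 11 of 11 classes and in 14 of 14 clusters that had 30 or more cells in each library. The difference ran from 0.619 points in other T-like cells (15.8%, 15.6%, 15.8% and 16.8%) to 6.89 in endothelial-like cells (15.5%, 17.3%, 22.3% and 24.2%). Kupffer-like cells came next with 12.5%, 13.7%, 19.2% and 19.7%, while other T-like cells barely separated. The same order was found in clusters that held mainly Sed or mainly Ex cells. Monocyte-like cluster 2 had 9.86%, 11.6%, 14.7% and 13.4%, and cluster 3 had 11.4%, 11.7%, 14.9% and 15.3%. The classes come from the same 4 libraries, so these counts are not independent of each other.

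The 3 mt-Co genes of complex IV moved the other way as a share, with 60.1%, 58.8%, 55.6% and 54.7% of mt- UMIs. Both Ex libraries were lower in 8 classes, higher in other T-like and regulatory T-like cells, and overlapped with Sed in 1. A share must fall when another rises, so levels are needed beside it. Summed mt- levels per complex were higher in both Ex libraries in 11 of 11 classes for complex I, in 9 for complex III, in 7 for complex IV and in 4 for complex V, which was lower in 2. In Kupffer-like cells, for instance, the mt- genes of complex I had a summed level of 5054, 5525, 7984 and 9819 CPM, although no single mt- gene passed the test there. In the same cells those of complex V had 10499, 9537, 7900 and 9582 CPM, with overlap.

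**Figure D3:**
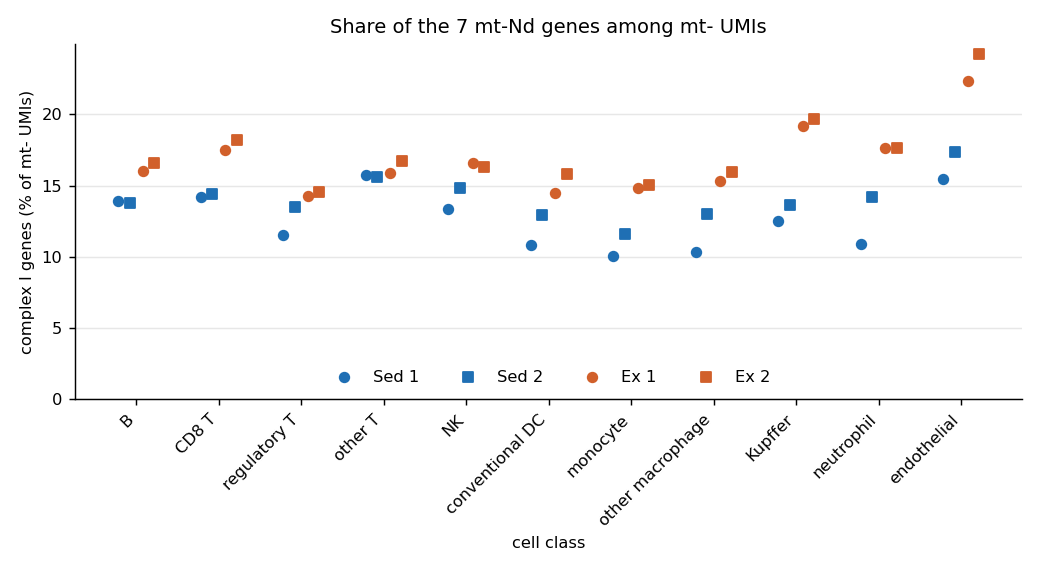
Percent of mt- UMIs in the 7 mt-Nd genes for each cell class, with 1 point per library. Both Ex points lie above both Sed points in all 11 classes, by 0.619 points in other T-like cells and by 6.89 points in endothelial-like cells.

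Among single genes, the 13 mt- genes gave 143 gene and class pairs, and the Ex libraries lay wholly above the Sed libraries in 107 of them (74.8%) and wholly below in 3. Over all 87925 pairs of genes and classes, these shares were 27.7% and 20.1%. All 13 were non-overlapping and higher in B-like (34.8% of all genes there), CD8 T-like (21.6%), monocyte-like (24.4%) and neutrophil-like cells (36.6%). In endothelial-like cells 12 were (37.1%), in Kupffer-like (14.2%) and other macrophage-like cells (21.6%) 9, and in conventional dendritic-like (30.3%) and other T-like cells (27.2%) 8. NK-like cells had 6 (32.1%) and regulatory T-like cells 3 (22.1%).

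The gene most often higher was mt-Nd3, which codes for a small core subunit of complex I. It was higher in both Ex libraries in 11 of 11 classes, with log2 changes from 0.33 in NK-like to 1.45 in Kupffer-like cells. In Kupffer-like cells mt-Nd3 had 222, 228, 460 and 723 CPM, with Ex 2 far above Ex 1 (edgeR adjusted p 0.0996). Clusters 7 and 14 made up different parts of the Sed and Ex cells of this class, and its erythroid marker level was 40.4, 433, 16272 and 16.6 CPM, with overlap. In neutrophil-like cells it had 53.0, 76.8, 184 and 194 CPM, a log2 change of 1.32 ± 0.25 (adjusted p 0.0683). These changes did not pass the threshold of 0.05. The genes mt-Nd2, mt-Nd4l and mt-Nd4, all membrane subunits of complex I, were non-overlapping and higher in 10 classes each, and mt-Cytb and mt-Co2 in 9. At the other end, mt-Atp6, the proton channel subunit of ATP synthase, was higher in 4 classes and lower in 2.

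**Figure D4:**
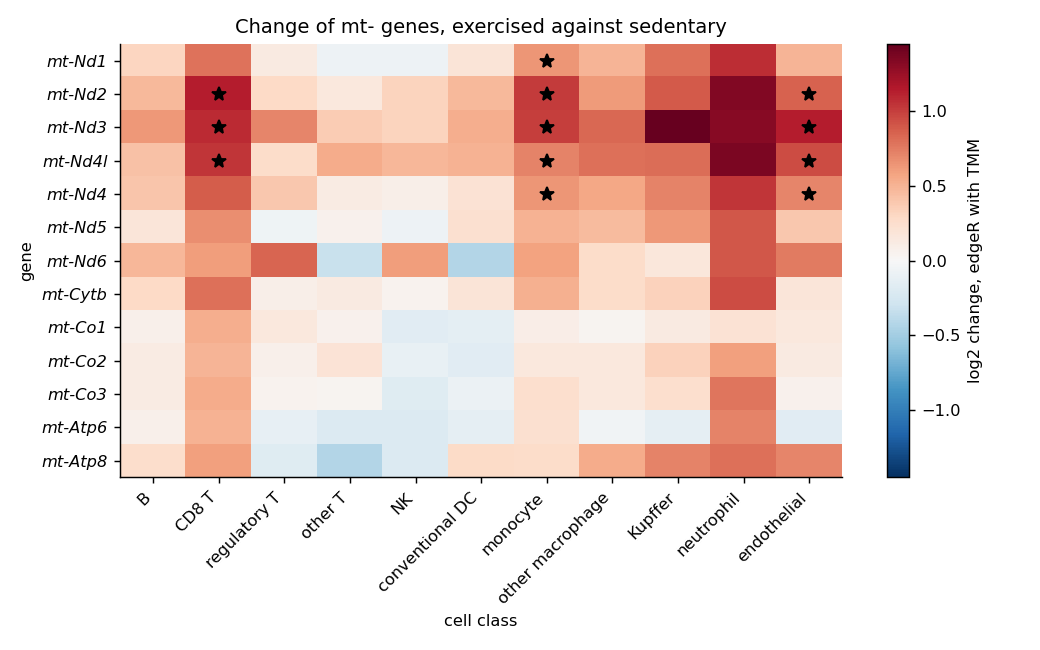
Log2 change from sedentary to exercised for the 13 mt- genes (rows, grouped by complex) in 11 cell classes, from edgeR with TMM scaling; stars mark an adjusted p under 0.05. The mt-Nd2, mt-Nd3 and mt-Nd4l rows are positive in every class, with mt-Nd3 from 0.33 to 1.45, while mt-Atp6 has values of both signs.

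With edgeR and adjustment over all genes of a class, 19 pairs of member and class passed 0.05 between Ex and Sed, 12 of them mt- genes, all higher in Ex. Over all genes, 1710 of 87925 pairs passed (1.94%), 0.866% higher and 1.08% lower in Ex. The calls fell in 3 classes: CD8 T-like (4.23% of all genes called, 1.55% higher and 2.68% lower), endothelial-like (10.3%, 4.41% higher and 5.87% lower) and monocyte-like cells (2.48%, 1.57% higher and 0.908% lower). In CD8 T-like cells mt-Nd2 had 1236, 1291, 2528 and 2838 CPM. The Ex values did not overlap with Sed (log2 1.13 ± 0.25 SE, adjusted p 0.0160). The same cells had mt-Nd3 at 247, 213, 456 and 489 CPM (1.08 ± 0.22, 0.00962) and mt-Nd4l at 83.8, 81.4, 176 and 151 CPM (1.03 ± 0.22, 0.0121). Within cluster 5 alone, which held most Ex cells of this class and where 0.0973% of all genes were called, the changes of these 3 genes were 0.50, 0.59 and 0.54 with edgeR adjusted p of 0.718, 0.570 and 0.655, so they did not pass there.

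Endothelial-like cells had 4 mt- calls. Their mt-Nd3 had 265, 260, 620 and 672 CPM (log2 1.14 ± 0.19, adjusted p 0.00308) and their mt-Nd4l 142, 129, 303 and 278 CPM (0.94 ± 0.20, 0.0111). For mt-Nd2 the values were 1615, 1635, 3116 and 3456 CPM (0.85 ± 0.18, 0.0118), and for mt-Nd4 they were 1884, 2033, 3641 and 3506 CPM (0.70 ± 0.17, 0.0253). No Ex value overlapped with a Sed value in these genes. Cluster 13 was the endothelial-like cluster found in all libraries, and all 4 genes passed in it with edgeR (16.4% of all genes called), with log2 changes of 0.82 to 1.43. It had 38, 94, 196 and 295 cells and held few UMIs per cell, so its Sed 1 values rest on few counts. For instance, mt-Nd4l, with the largest change, had 56.1, 172, 441 and 374 CPM there.

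Monocyte-like cells had 5 mt- calls. There mt-Nd2 had 548, 758, 1332 and 1262 CPM (log2 1.01 ± 0.16, adjusted p 0.0200) and mt-Nd3 had 124, 169, 281 and 300 CPM (1.00 ± 0.17, 0.0220). The other 3 were mt-Nd4l (0.72 ± 0.15, 0.0482), mt-Nd1 (0.64 ± 0.13, 0.0431) and mt-Nd4 (0.64 ± 0.13, 0.0476). Again the groups were separate in each gene. Within cluster 3, mt-Nd2 (0.88) and mt-Nd3 (1.13) passed with edgeR adjusted p of 0.0354 and 0.0226 (0.934% of all genes called), and within cluster 2 no gene at all did (0%). Beside these results, erythroid marker genes were also higher in Ex: their summed level was 24.2, 22.03, 4390 and 5674 CPM in endothelial-like and 13.1, 23.8, 1246 and 2088 CPM in monocyte-like cells. The markers Hba-a1, Hbb-bs, Hbb-bt and Alas2 were each higher in both Ex libraries in monocyte-like and in endothelial-like cells, while Alas2 was at 0 in both Sed libraries of these classes. In CD8 T-like cells the erythroid level was 22.9, 28.3, 41.5 and 5.69 CPM, with overlap. In monocyte-like cluster 2 it was 11.9, 26.2, 32.5 and 2.33 CPM, and mt-Nd3 there had 125, 170, 298 and 259 CPM (edgeR adjusted p 0.678). In endothelial-like cluster 13 it was 196, 95.6, 19169 and 29055 CPM, and the part of these cells or their free RNA in the endothelial-like results was not tested.

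In the other 8 classes edgeR called 0 members, where it called 0.188% of all genes in B-like, 0.183% in Kupffer-like, 0.158% in NK-like, 0.0695% in conventional dendritic-like, 0.386% in neutrophil-like, 0.119% in other T-like, 0.169% in other macrophage-like and 0.818% in regulatory T-like cells. At an unadjusted p under 0.05 there were 16 nuclear and 3 mt- genes in B-like cells, 14 and 0 in NK-like, 6 and 12 in neutrophil-like, 8 and 0 in other T-like, 6 and 6 in other macrophage-like, 4 and 1 in regulatory T-like, 1 and 5 in Kupffer-like and 1 and 3 in conventional dendritic-like cells. Over all 11 classes this threshold was passed by 13053 of 87925 pairs of all genes, by 119 of 825 nuclear pairs, a share close to that of all genes, and by 54 of 143 mt- pairs. DESeq2 called 4 members in neutrophil-like cells, 1 in Kupffer-like cells and 0 in the other 6. Over all genes it called 122 in neutrophil-like and 38 in Kupffer-like cells. In the other 6 it called from 2 in other T-like to 160 in other macrophage-like cells. Where all genes had a median change near 0, the mt- median was 0.90 in neutrophil-like, 0.67 in CD8 T-like, 0.63 in Kupffer-like, 0.52 in monocyte-like, 0.49 in endothelial-like and 0.46 in other macrophage-like cells. It was 0.29 in B-like, 0.19 in conventional dendritic-like, 0.13 in regulatory T-like, 0.06 in other T-like and -0.07 in NK-like cells. Scaling by library totals, an alternative chosen after seeing the data, moved the median of all genes by more than 0.1 in 7 classes, to between -0.11 in Kupffer-like and 0.24 in neutrophil-like cells. The mt- median was then 0.09 in NK-like cells, the class in which its sign changed, and 1.13 in neutrophil-like cells, with 9 mt- genes called there. Of all 7507 genes tested in neutrophil-like cells, 224 rose and 43 fell with library totals, against 8 and 21 with TMM.

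Nuclear genes went the other way more often. Of 825 pairs of nuclear gene and class, the Ex libraries lay wholly below the Sed libraries in 270 (32.7%, against 20.1% of all genes) and wholly above in 124 (15%, against 27.7%). Lower pairs made up 35.8% of those of complex I, 43.2% of complex II, 26.1% of complex III, 24.4% of complex IV and 32.5% of complex V. The median change per class ran from -0.33 in B-like to 0.07 in Kupffer-like cells with TMM. With library totals it was -0.16 in B-like, -0.03 in Kupffer-like, 0.02 in endothelial-like (-0.14 with TMM) and 0.23 in neutrophil-like cells (0.01 with TMM), where the median of all genes also moved to 0.24. Ndufa8, a subunit of the intermembrane side of complex I, was lower in both Ex libraries in 10 of 11 classes, with 173, 179, 131 and 131 CPM in monocyte-like and 115, 117, 81.9 and 65.9 CPM in CD8 T-like cells. Ndufs3 and Ndufv2, core subunits of the arm that takes up electrons, were lower in 9 classes each, and Ndufa12 and the subunit c gene Atp5g2 in 8. Sdhd was lower in 7 and Sdhb in 6. Higher in both Ex libraries most often were Ndufa3 and Cox6a1, in 6 classes each. None of these counts is a test.

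Only 7 of 825 nuclear pairs passed the edgeR test: 2 rose and 5 fell, against 761 and 949 of 87925 pairs over all genes. In monocyte-like cells 3 of 76 nuclear genes fell, while 93 of all 10242 genes tested there did. Ndufa12, an accessory subunit of complex I, had 112, 105, 65.1 and 63.6 CPM (log2 -0.74 ± 0.15, adjusted p 0.0412). Atp5g1 had 402, 391, 255 and 232 CPM (-0.69 ± 0.15, 0.0487), and Atp5j, a stalk subunit of ATP synthase, had 446, 488, 291 and 295 CPM (-0.66 ± 0.14, 0.0450). The groups were well apart in each, but within clusters the changes shrank: in cluster 3 they were -0.11, -0.27 and -0.10 and in cluster 2 -0.64, -0.52 and -0.33, and none passed with edgeR.

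In endothelial-like cells 2 of 75 nuclear genes rose and 2 fell. Of all 9012 genes tested there 397 rose and 529 fell, a larger share in each direction. Cox6a1, the widely expressed partner of Cox6a2 (GRCm38 chromosome 5, 115345642 to 115348981, minus strand), had 114, 141, 288 and 270 CPM. Both Ex values were above both Sed values (log2 0.96 ± 0.19, edgeR adjusted p 0.00854). Ndufc1 (chromosome 3, 51404677 to 51408988) rose from 93.3 and 100.03 CPM to 188 and 161 CPM (0.68 ± 0.20, 0.0496), close to the threshold. Atp5f1, the peripheral stalk subunit b of ATP synthase (chromosome 3, 105942698 to 105960099), fell from 352 and 481 CPM to 241 and 214 CPM (-1.04 ± 0.19, 0.00647). Cox7a2l (chromosome 17, 83501918 to 83517330) fell from 584 and 592 CPM to 418 and 401 CPM (-0.69 ± 0.18, 0.0339). The windows at their RefSeq starts are printed above. In cluster 13, which had only 38 cells in Sed 1, Cox6a1 (1.20, edgeR adjusted p 0.0206) and Atp5f1 (-1.21, 0.00437) passed. Ndufc1 (0.97, 0.101) and Cox7a2l (-0.69, 0.0705) did not.

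Some proteins of complexes IV and V come in more than 1 form, and the balance of forms was compared as shares of UMIs. In monocyte-like cells Cox7a2 made up 46.9%, 50.2%, 34.9% and 35.5% of the Cox7a2 and Cox7a2l UMIs, lower in both Ex libraries. Endothelial-like cells had the opposite order, with 32.7%, 29.4%, 45.7% and 43.4%. In B-like cells the groups overlapped (24.9%, 32.4%, 30.8% and 28.2%). Among the 3 genes for subunit c, which give the same mature protein, Atp5g1 made up 38.7%, 35.8%, 31.4% and 28.6% in monocyte-like cells and 39.7%, 36.7%, 32.3% and 29.3% in other macrophage-like cells. Both were lower in Ex, as in Kupffer-like (30.9%, 31.8%, 29.0% and 24.5%) and endothelial-like cells. In conventional dendritic-like cells the Atp5g1 share was higher in Ex (28.6%, 29.6%, 35.3% and 30.6%). The Cox7a2 share was also higher in both Ex libraries in NK-like and other T-like cells. For each of these separated sets the exact permutation p was 0.333. Monocyte-like cells of Sed and Ex lay largely in different clusters.

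**Figure D5:**
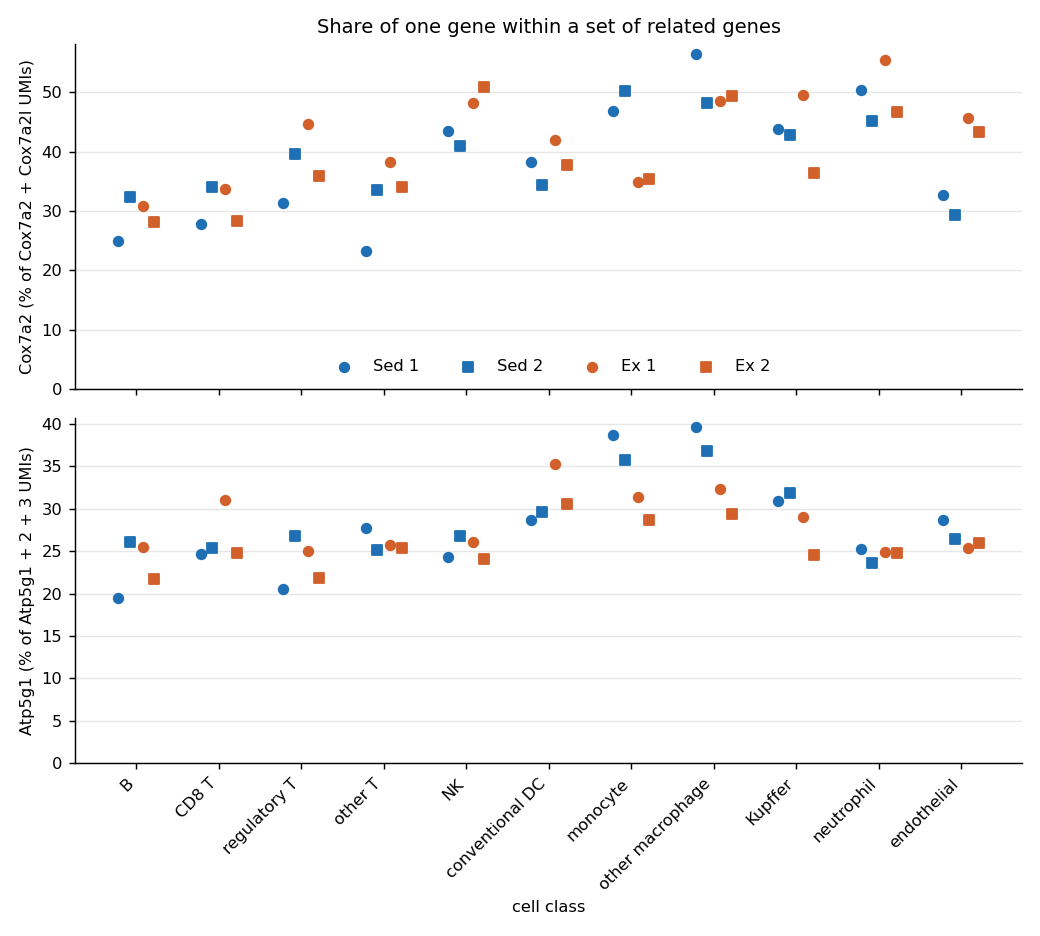
Share of Cox7a2 among Cox7a2 and Cox7a2l UMIs (top) and of Atp5g1 among the 3 subunit c genes (bottom), in percent, for each cell class and library. Both Ex libraries were below Sed in monocyte-like cells in either panel and above Sed in endothelial-like cells for Cox7a2 (45.7% and 43.4% against 32.7% and 29.4%).

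Whether the change with exercise differed between classes was tested with edgeR as the change in a class minus the mean change of the other 10. Of the member and class pairs, 10 passed 0.05 (1.23% over all genes). Each class had 77 nuclear and 13 mt- genes tested, so over all classes members passed no more often than all genes did. Endothelial-like cells had 3 (3.19% of all genes called there), neutrophil-like 5 (7.06%), CD8 T-like 1 (1.9%) and monocyte-like 1 (0.554%). The difference for Cox6a1 in endothelial-like cells was 0.91 ± 0.20 and for Atp5f1 -0.73 ± 0.16. Cox7a2l in monocyte-like cells, with 405, 391, 554 and 547 CPM, differed by 0.75 ± 0.17 (adjusted p 0.0307). None of the mt-Nd genes was among the 10, and of the mt- genes mt-Co1 in CD8 T-like and mt-Atp6 in neutrophil-like cells were.

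Genes around the respiratory chain were counted from lists that hold assembly factors, carriers, tricarboxylic acid cycle enzymes and the machinery of mitochondrial DNA, RNA and ribosomes. Between Ex and Sed, 0 of 418 gene and class pairs of assembly factors passed with edgeR, and 0 of 177 of the tricarboxylic acid cycle. Over all genes, 0.866% of pairs rose and 1.08% fell. Mitochondrial ribosomal proteins fell in 7 of 799 pairs and rose in 0, near that share; of the 7, Mrpl30, Mrps5, Mrpl51, Mrps11, Mrpl57 and Mrps7 fell in endothelial-like cells, where 5.87% of all genes fell, and Mrps11 also in monocyte-like cells. Genes of carriers and of other electron entry points rose in 1 pair and fell in 4 of 151, with Gpd2, Atpif1 and Etfb lower in CD8 T-like cells. The genes that read and process mitochondrial DNA and RNA fell in 1 of 172 pairs, Hsd17b10 in endothelial-like cells. Between classes, mitochondrial ribosomal proteins were higher for 40 and lower for 4 of 77 genes in monocyte-like cells (30% and 21.4% of all genes) and lower for 64 and higher for 6 in neutrophil-like cells (34.4% and 35.2%), whose counts depend on the scaling. Kupffer-like cells had 11 of 15 carrier genes and 9 of 17 tricarboxylic acid cycle genes higher, with 1 and 0 lower (29.9% and 19.4% of all genes).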

How the data were processed

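Single-cell RNA of 4 libraries was analysed, 2 per group. Values are raw counts of UMIs for each gene in each cell, deposited by the authors and made with Cell Ranger (7.0.0 per the submitters' processing notes, 6.1.1 per the file headers) on mm10 (GRCm38). Its 22615 columns of no listed library were not used. The number at the end of a barcode was read as the library's place in the aggregation table, which limits every comparison between groups.

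Barcodes were kept from 200 detected genes upward and up to 10% mt- UMIs, and doublets scored by scrublet were removed at 0.8% per 1000 cells, since its automatic threshold called almost none in 3 libraries. Clustering (scanpy 1.11.5, leidenalg 0.10.2, 2000 variable genes, 30 components, 15 neighbours, resolution 1) left out the 97 members, and clusters were named from at least 3 markers with a score of 1 or more. Other T-like cells did not take the name of their best-scoring list, which was that of type 1 innate lymphoid cells. Raw counts were summed per library and class with at least 30 cells in each library.

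Sums were tested with edgeR 4.0.16 (filterByExpr, TMM, robust quasi-likelihood test, Benjamini-Hochberg over all genes, 0.05) in R 4.3.3, with DESeq2 1.42.0 as an alternative. The script was tested on simulated data. Shares were compared with exact two-sided permutation tests. Total counts of the kept cells were 20820234 to 35655530 UMIs per library, and sums of small classes have the largest counting error. Named genes were all mt- and Sdh genes, the 3 members with most counts per complex, isoform sets, called members and, between classes, the largest changes at 20 CPM or more. Ndufa8, Ndufs3, Ndufv2, Ndufa12, Ndufa3 and the other genes named for how many classes they moved in were picked after their values were seen. The members and lists were chosen with earlier results of these data known. The erythroid sum holds a further marker that is not reported here.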

Additional observations from a re-analysis of the deposited data

Results flagged for a closer look

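The test of a change that differs between cell classes, edgeR's quasi-likelihood test with Benjamini-Hochberg adjustment, picked out 10 results among the members. Over all classes, members passed no more often than all genes did. Each value is the log2 change from Sed to Ex in a class minus the mean change of the other classes. In endothelial-like cells the difference was -0.73 for Atp5f1 (adjusted p 0.00517), 0.91 for Cox6a1 (0.00461) and 0.66 for Ndufb10 (0.0453), a membrane arm subunit of complex I with 103, 148, 195 and 192 CPM in Sed 1, Sed 2, Ex 1 and Ex 2. Cox7a2l in monocyte-like cells differed by 0.75 (0.0307), so its change had opposite signs in monocyte-like and endothelial-like cells.

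Neutrophil-like cells held 5 of the 10: of 77 nuclear genes tested 3 were higher and 1 lower, and of 13 mt- genes 1 was higher. Of all 11551 genes 265 were higher and 550 lower there, so members did not pass more often. Ndufa8 differed by -0.62 (adjusted p 0.0202) and Ndufs3 by 0.86 (0.00901), with 15.7, 11.1, 22.3 and 25.7 CPM for Ndufs3. The ring subunit genes differed by 0.71 for Atp5g1 (0.0478) and by 0.70 for Atp5g2 (0.0250). The mt- gene mt-Atp6 differed by 0.53 (0.0261), with 1639, 2012, 3430 and 3602 CPM. In CD8 T-like cells mt-Co1, the catalytic core of complex IV, differed by 0.47 (0.0341), with 6145, 5607, 7898 and 8535 CPM. The Sed and Ex cells of neutrophil-like and CD8 T-like classes lay largely in different clusters.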

How the results depend on the processing

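The 19 member calls between Ex and Sed were 55 with no low-count filter, 51 with a replicate block, 6 with mt- UMIs left out, which leaves nuclear genes only, and 7 with sums thinned to the smallest total of the class. Leaving out a library gave 2 to 87 calls, with 87 when Sed 2 was left out, 60 when Sed 1 was, 3 when Ex 2 was and 2 when Ex 1 was. The other alternatives gave 15 to 28. Of the 19 calls, 8 no longer passed with at least 500 genes and at most 5% mt- UMIs, 7 at resolution 0.5 and 6 with doublets kept. These member counts stand without the counts over all genes in the same settings. The labels give no shared batch or day to a replicate number, and the same-number correlation was 0.197 over 2 pairs. The 10 calls of a change that differs between classes became 26 with library totals, chosen after seeing the data; 3 of the 10 no longer passed with library totals, 3 with DESeq2 size factors and 5 with no mt- limit. The difference in mt- share was 0.525 points with at most 5% mt- UMIs and 500 genes, 1.28 with no mt- limit, and 0.766 to 1.18 without each library. The ratio of mt- to nuclear UMIs differed by 0.429 under the stricter limit and by 0.511 to 1.07 without each library. The mt- complex I share differed by 3.74 to 5.13 points without each library and by 4.08 to 4.48 under other cell filters, which were added after seeing the data. In neutrophil-like cells Ndufb7 and Atp5l, above the other classes by 0.76 and 0.75 with TMM, reversed to -0.19 and -0.19 with library totals; by construction that scaling leaves out the composition factor. The 479 class calls ranged from 360 to 598. The cause of the other shifts was not tested. Classes with few cells limit what these depths can show.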

Other observations

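Of the classes too small to test, plasmacytoid dendritic-like and cycling T-like cells had the same order in mt- RNA make-up. Values of the other small classes are not given. In plasmacytoid dendritic-like cells the 7 mt-Nd genes made up 14.1%, 15.5%, 16.0% and 16.4% of mt- UMIs in Sed 1, Sed 2, Ex 1 and Ex 2. In cycling T-like cells the values were 12.4%, 13.03%, 17.8% and 18.5%. Both sets rest on few cells, with 17 plasmacytoid dendritic-like cells in Sed 1 and 22 cycling T-like cells in Ex 2.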
